A study of Homo sapiens and Mus musculus with 69 samples.

Results

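H524 cells that overexpressed the active fragment of NOTCH1 were compared with H524 cells that overexpressed REST, both cultured with doxycycline. H524 (NCI-H524) is an established small cell lung cancer (SCLC) cell line. The comparison rests on 6 of the 69 libraries of the series, 3 in each group, and covers every gene of the human expression table. It addresses how far the transcriptome under NOTCH1 resembles that under REST, a transcriptional repressor that Notch signaling is known to switch on. Of 20516 genes in the table, 13648 reached a log2 value of 1 in 3 or more of the 15 H524 libraries and were tested.

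Both groups were H524 cells that carried a doxycycline-inducible lentiviral vector and had been drug-selected. The H524_NOTCH1_dox group (N1ICD cells below, libraries 25, 26 and 27) carried the intracellular domain of human NOTCH1 and received doxycycline. The H524_REST_dox group (REST cells, libraries 37, 38 and 39) carried human *REST* and received doxycycline. The remaining 9 H524 libraries were the same lines without doxycycline (H524_NOTCH1_no_dox, libraries 22 to 24, and H524_REST_no_dox, libraries 34 to 36) and the H524_parental cells, which had no vector (libraries 19 to 21). According to the methods, overexpressing cells were collected after long-term doxycycline and only if they adhered to the plate, so collection of adherent cells was part of the doxycycline groups. The vector encodes only the intracellular domain, and the table gives 1 value per gene, so vector and endogenous transcripts of *NOTCH1* or *REST* could not be told apart. No vector-free cells received doxycycline, and nothing states that the libraries of a group came from separate cultures. The P values therefore measure the spread between these libraries, which may be technical.

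Notch receptors are cut on contact with a ligand, and the freed intracellular domain moves to the nucleus, where it joins the DNA-binding protein RBPJ and turns on repressors of the HES and HEY families. These repressors switch off proneural transcription factors. REST binds RE1 elements and, with its corepressors RCOR1, KDM1A and HDAC2, keeps neuronal genes silent outside neurons. Most SCLC is neuroendocrine (NE) and expresses neuronal genes, and Notch activity in SCLC is known for moving cells toward a non-NE state.

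Values below are log2(RPKM + 1), where RPKM is reads scaled to transcript length and library size, so levels of different genes are on one scale per length. A difference of 1 on this scale is close to a 2-fold change for well-expressed genes and understates the change of low genes. A gene was called when the limma test gave an adjusted *P* under 0.05 and the log2 difference was at least 1. Among all genes tested, 3244 (23.8%) were called between N1ICD and REST cells: 1681 (12.3%) were higher in N1ICD cells and 1563 (11.5%) were lower. The median log2 difference over all genes was -0.04. The levels of 4217 genes (30.9%) were higher in every N1ICD library than in every REST library, and those of 4784 genes (35.1%) were lower.

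**Figure D1:**
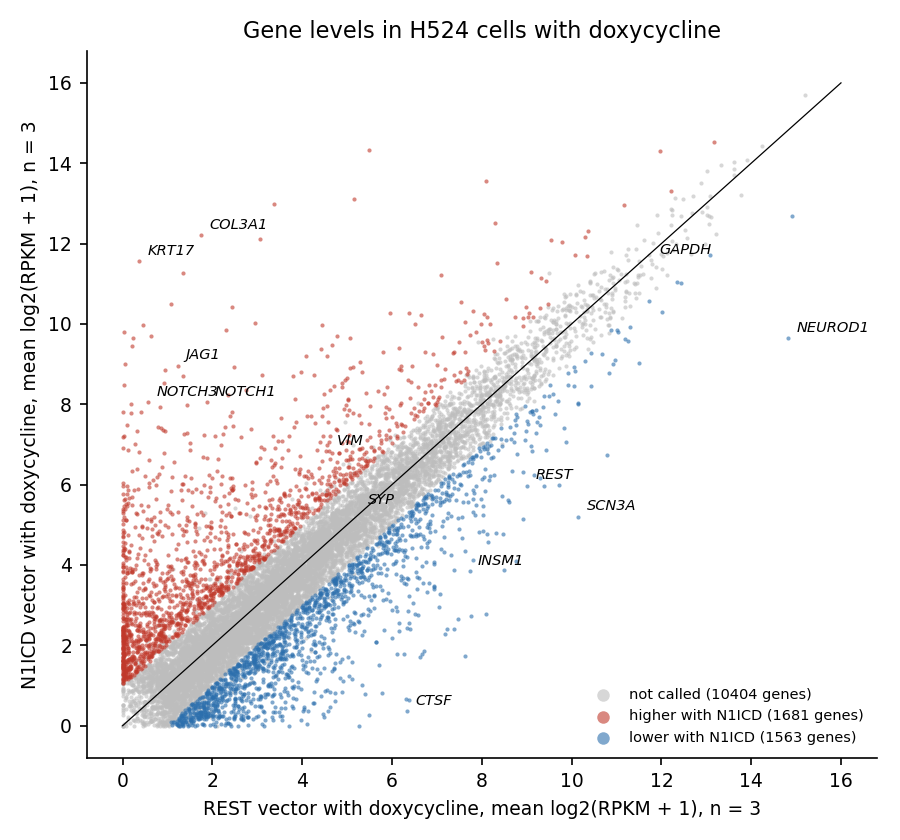
Mean log2(RPKM + 1) of each tested gene in REST cells (x axis) and N1ICD cells (y axis), both with doxycycline and n = 3 libraries each; the line marks equal levels. Genes higher in N1ICD cells (1681, red) reach from near 0 in REST cells to above 12 in N1ICD cells, while genes lower in N1ICD cells (1563, blue) include *NEUROD1*, *SCN3A* and *CTSF*.

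The libraries carried the marks of the NEUROD1 subtype. In parental cells *NEUROD1*, the factor that defines it, stood at 14.27, 13.07 and 14.02, against at most 0.16 for *YAP1*, with *POU2F3* listed at 0. Relative library sizes, estimated from the smallest values, ranged from 0.631 to 1.38 of the median H524 library. Pearson's correlation between libraries over the genes tested was 0.989 to 0.993 within N1ICD cells and 0.974 to 0.989 within REST cells, against 0.848 to 0.869 between these groups. N1ICD vector cells without doxycycline were the least alike (0.933 to 0.966). Of 17 markers of blood and endothelial cells, 14 were in the table and 3 were tested: *CD14*, a monocyte receptor, averaged 4.15 in N1ICD and 1.40 in REST cells, *HBA1*, a hemoglobin chain, was also higher in N1ICD cells, and *CD8A* was lower. Of these 3 markers, 2 were already called higher in the N1ICD line without doxycycline and none lower (median 2.07). With doxycycline none of the 3 was called higher in the N1ICD line and 1 was called lower. *PTPRC*, which encodes the pan-leukocyte antigen CD45, was at or near 0 throughout.

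The induced genes were examined first. *NOTCH1* (chr9:139388885-139440500, GRCh37, minus strand) stood at 7.58, 8.29 and 8.31 in N1ICD cells and at 1.41, 2.29 and 1.91 in REST cells. The groups did not overlap, and the log2 difference was 6.19 (SE 0.27, adjusted *P* = 7.88e-10, limma). *NOTCH1* also rose with doxycycline in the REST line, from a mean of 0.49 to 1.87 (log2 difference 1.38, adjusted *P* = 0.0144, limma). *REST* (chr4:57774042-57832974, GRCh37, plus strand) stood at 6.87, 10.72 and 9.43 in REST cells, so library 37 carried far less *REST* than the other two. The same gene stood at 5.96, 5.85 and 6.12 in N1ICD cells, below every REST library (log2 difference -3.03, SE 0.69, adjusted *P* = 0.00287, limma). In the N1ICD line itself *REST* rose with doxycycline by 2.71 (adjusted *P* = 0.00771, limma), from 2.93, 2.66 and 4.20 without it. That start was low: the uninduced N1ICD line averaged 3.26, against 4.78 in parental cells and 4.995 in the uninduced REST line. The difference between the uninduced lines did not pass the test (-1.73, adjusted *P* = 0.0635, limma). *REST* thus rose with doxycycline in both lines, from a lower start in the N1ICD line, where it reached a mean of 5.98. Its level with doxycycline was higher under the *REST* vector. Without library 37 the number of genes called between N1ICD and REST cells was 3055.

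**Figure D2:**
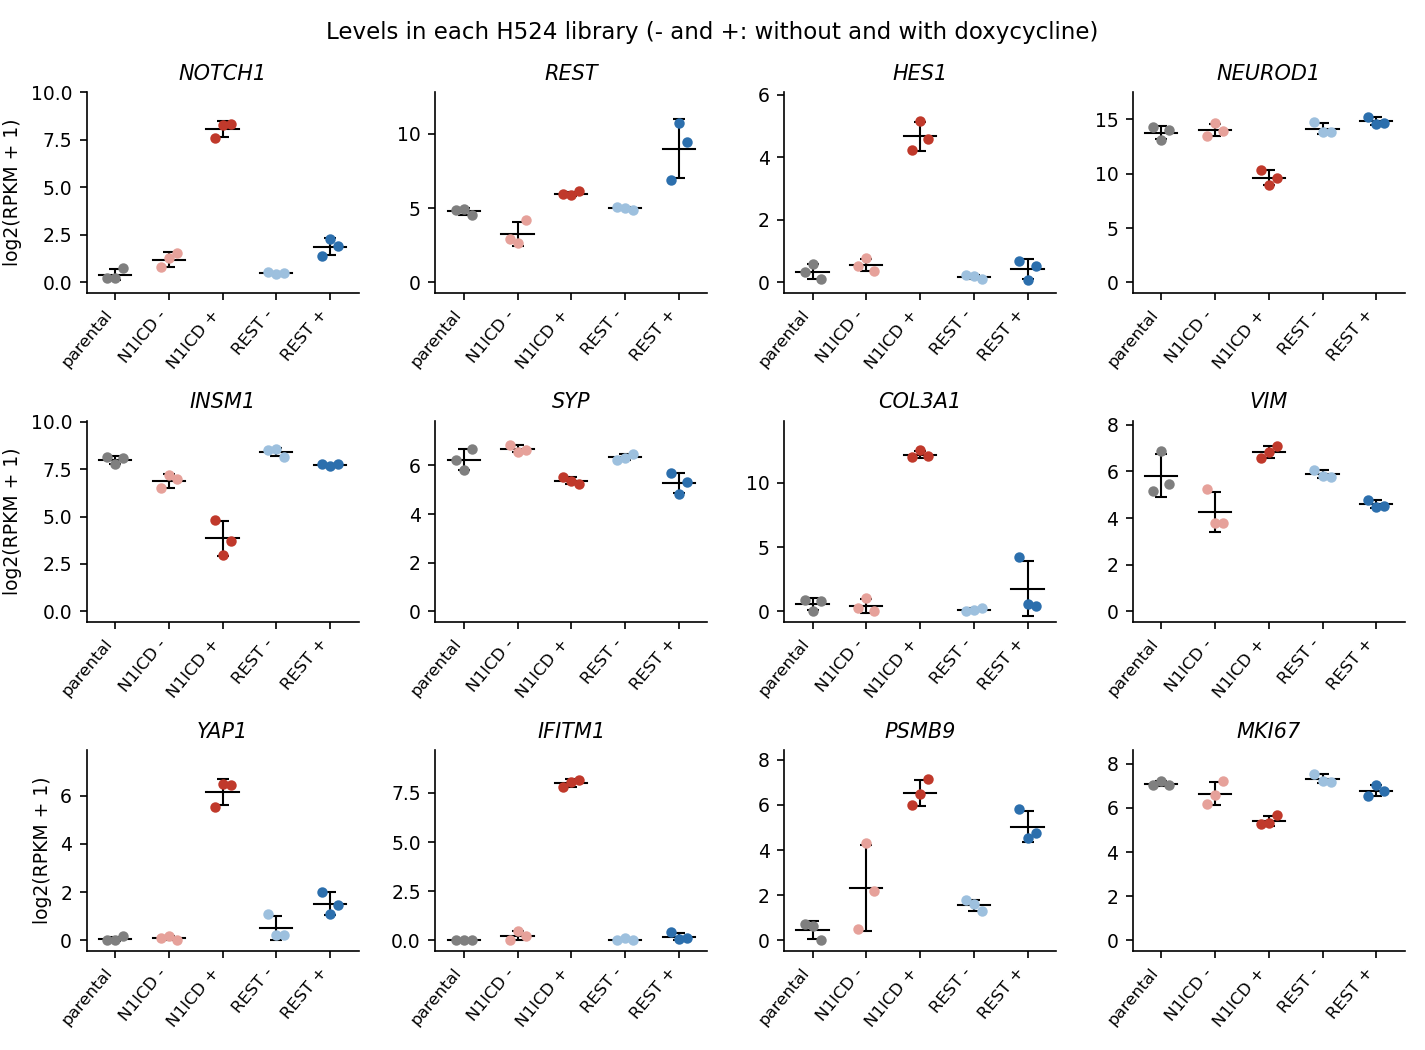
Log2(RPKM + 1) of 12 genes in each of the 15 H524 libraries (points), with the mean and SD of the 3 libraries of each group (lines). *HES1*, *COL3A1*, *YAP1* and *IFITM1* were high only in N1ICD cells with doxycycline, *NEUROD1* and *INSM1* were low there, and *SYP* was at similar levels in N1ICD and REST cells.

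Most Notch target genes were higher in N1ICD cells. Among 18 tested Notch target genes 11 were higher and 3 lower in N1ICD cells, with a median log2 difference of 1.41 against -0.04 for all genes. *HES1*, the best known of the HES repressors, stood at 4.25, 5.16 and 4.59 in N1ICD cells and at 0.69, 0.07 and 0.53 in REST cells (log2 difference 4.23, SE 0.23, adjusted *P* = 6.12e-09, limma). Every N1ICD library exceeded every REST library. *HES5* stood at 2.77, 2.87 and 3.42 against 0.02, 0.01 and 0.04. *HEYL* was higher by 4.68 and *HEY1* by 3.97. *NRARP*, a target that feeds back on the Notch complex, was higher by 5.31. *HEY2* differed less, by 1.62 (SE 0.31, adjusted *P* = 0.000961, limma), and was the HES or HEY gene that also rose in the REST line, by 1.72. *DTX3L*, an E3 ligase, was listed at 0 in all REST libraries and stood at 3.77, 3.88 and 4.22 in N1ICD cells. It was already higher in the N1ICD line without doxycycline (log2 difference 1.56, adjusted *P* = 1.57e-05, limma). Of the 18 Notch target genes, 3 were higher and 2 lower in the N1ICD line without doxycycline (median 0.16).

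*HES6*, a relative of HES1 that favors neuronal differentiation, moved the other way. Its levels were 2.93, 1.94 and 1.91 in N1ICD cells and 4.97, 5.91 and 5.15 in REST cells (log2 difference -3.08, SE 0.39, adjusted *P* = 2.9e-05, limma). *CCND1*, a D cyclin, was also lower in N1ICD cells (-1.62). Of 10 receptors and ligands tested, 4 were higher and 1 lower. *NOTCH3*, a receptor, stood at 7.94, 8.07 and 8.15 in N1ICD cells and at 0.86, 0.45 and 0.41 in REST cells. The ligand *JAG1* stood at 8.58, 9.15 and 9.16 against 1.26, 1.21 and 1.20. The log2 differences of *NOTCH3* (7.48) and *JAG1* (7.74) exceeded that of *NOTCH1* itself. In N1ICD cells *NOTCH3* and *NOTCH1* were at like levels (means 8.05 and 8.06), and in REST cells *NOTCH1* was the higher (0.57 and 1.87). The vector holds only the intracellular domain, and RPKM is scaled to transcript length, so *NOTCH1* is not strictly comparable with the others. The inhibitory ligand *DLL3*, a surface marker of NE SCLC, was lower in N1ICD cells (-1.89, adjusted *P* = 0.00068, limma) although it had been higher in that line without doxycycline (1.33).

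Promoters were read for the letters of the RBPJ core, TGGGAA, and of the RE1 element, CAGCACC and GGACAG with 2 bases between them, on both strands of the 300 bases from 250 before to 50 after each start (RefSeq, GRCh38.p14). The promoters of 4 HES and HEY genes are shown because these targets were higher in N1ICD cells and hold the RBPJ letters wholly before the start on the gene's strand. Each is given 5′ to 3′ on the gene's strand with the RBPJ letters in capitals.
HES1 chr3:194136059-194136088 (plus strand): tactgTGGGAAagaaagttTGGGAAgtttc
HES5 chr1:2530326-2530355 (minus strand): ggccgcggagtgTGGGAAcggccgcggcgc
HEYL chr1:39639725-39639754 (minus strand): aggaaagggcccTGGGAAagggcggtggcg
HES4 chr1:1000156-1000185 (minus strand): ctggggcgagtgTGGGAAagaatgcggagc
The *HES1* window holds the letters 2 times. The promoter of *HEY2*, also higher in N1ICD cells, holds them 2 times as well and is not shown. There they begin at -213 on the opposite strand and at -3 on the gene's strand, where they run across the start. The promoters of *NRARP*, *NOTCH3* and *JAG1*, which were higher in N1ICD cells by 5.31, 7.48 and 7.74, do not hold them. The RBPJ letters were in 5 of 13 promoters of Notch target genes (38.5%) and in 6635 of all 27305 promoters (24.3%). They were in 22.3% of promoters of genes higher in N1ICD cells and in 22% of those lower, against 21.8% for all genes tested, so neither share stood far from the background. The RE1 letters were in 14 of 27305 promoters (0.0513%) and in 1 of 22 of the neuronal genes below, *SYN1*, which encodes a synaptic vesicle protein. Its window is shown with the RE1 letters in capitals.
SYN1 chrX:47620066-47620095 (minus strand): ccagcttCAGCACCGCGGACAGtgccttcg
A match of letters is a description of the sequence and does not show binding.

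Of 14 genes for REST and its partners, *REST* alone was called with doxycycline in the REST line. Of all genes tested, 255 (1.87%) were called there, so the lack of calls among the partners was near the background. Between N1ICD and REST cells 4 of the 14 were lower in N1ICD cells, *REST* among them, against 11.5% of all genes. *KDM1A*, a histone demethylase, differed by -1.77, *RCOR2* by -2.12 and *EHMT2*, a histone methyltransferase, by -1.07. *CTDSP1*, a small phosphatase that acts with REST, was higher in N1ICD cells (2.82) and had been higher without doxycycline (2.18).

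Neuronal genes known to be under REST were split, and most were not called. Of 32 tested, 3 were higher and 9 lower in N1ICD cells, with a median of -0.19. Without doxycycline none was higher and 8 were already lower in the N1ICD line (median -0.20). In REST cells, which had more *REST*, *SYP* (synaptophysin, a vesicle protein) stood at 5.69, 4.83 and 5.30, and in N1ICD cells at 5.52, 5.35 and 5.23. The groups overlapped, and the log2 difference was 0.09 (SE 0.23, adjusted *P* = 0.776, limma). With doxycycline *SYP* fell in both lines, with log2 differences of -1.32 in the N1ICD line and -1.06 in the REST line. *GRIN1*, an NMDA receptor subunit, also fell in both (-2.38 and -2.27), and with doxycycline the groups overlapped (log2 difference -0.26, SE 0.41, adjusted *P* = 0.641, limma). The neurofilament gene *NEFM* fell in both as well (-2.63 and -1.83). Within this list 14 genes fell and 1 rose with doxycycline in the N1ICD line, against 981 (7.19%) and 1559 (11.4%) of all genes. In the REST line 7 fell and none rose, against 80 (0.586%) and 175 (1.28%) of all genes. The 80 became 25 to 130 when 1 REST line library was left out, with 130 without library 37, which had the least *REST* of the 3 REST libraries with doxycycline, and 25 without library 39. The medians were -0.86 and -0.90 (all genes, -0.02 and 0.01).

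Several neuronal genes did differ. *SCN3A*, a sodium channel, stood at 6.13, 4.46 and 5.02 in N1ICD cells and at 9.91, 10.14 and 10.39 in REST cells (log2 difference -4.95, SE 0.42, adjusted *P* = 5.69e-07, limma). Without doxycycline *SCN3A* was already lower in the N1ICD line (-2.57). Its change with doxycycline did not pass the test in the REST line (-0.18). *STMN2*, a regulator of microtubules in neurons, differed by -3.54 between N1ICD and REST cells and by -4.04 without doxycycline. In the opposite direction, *SCG2*, a granin of secretory granules, stood at 5.95, 6.31 and 5.78 against 2.07, 0.78 and 1.13. *SNAP25*, part of the vesicle fusion machinery, was higher by 1.66 and *VGF*, a secreted neuropeptide precursor, by 2.93.

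Most transcription factors of the NE state were lower in N1ICD cells, 15 of 25 tested with 1 higher and a median log2 difference of -1.75. Without doxycycline 7 of the 25 were already lower and 2 higher in the N1ICD line (median -0.72). *NEUROD1* (chr2:182533022-182545554, GRCh37, minus strand) stood at 10.38, 8.94 and 9.62 in N1ICD cells and at 15.25, 14.56 and 14.66 in REST cells (log2 difference -5.18, SE 0.42, adjusted *P* = 4.32e-07, limma). The REST libraries lay above every parental library, and the N1ICD libraries lay below. *INSM1*, a zinc-finger factor of NE cells, stood at 4.84, 2.98 and 3.72 against 7.74, 7.68 and 7.77. *NHLH2* differed by -5.30 (-1.99 without doxycycline), *ST18* by -4.20, *SOX4* by -3.51 and *SOX11* by -3.32. The exception was *INSM2*, higher by 3.42 in N1ICD cells and by 3.16 without doxycycline.

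With doxycycline 15 of these factors fell in the N1ICD line and 4 in the REST line, with medians of -1.82 and -0.01. Of all genes 7.19% and 0.586% fell in these lines. The 4 in the REST line were *POU3F2*, *POU3F3*, *MYT1L* and *ONECUT2*. *POU3F2*, a neural POU factor, had differences of -2.15 in the N1ICD line and -1.21 in the REST line, and *MYT1L*, a zinc-finger factor of neurons, of -2.02 and -1.69. *NEUROD1* fell by 4.36 in the N1ICD line, whereas its difference in the REST line, 0.68, did not pass the test. The difference between these responses was -5.04 (SE 0.60, adjusted *P* = 4.22e-05, limma).

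NE secretory and surface genes were mixed, with 4 higher and 7 lower of 20 (median -0.38). *CHGA*, chromogranin A, a standard NE marker, was higher in N1ICD cells (5.89, 5.62 and 5.46 against 4.52, 4.08 and 4.53, log2 difference 1.28, adjusted *P* = 0.00475, limma). It had been higher by 1.42 without doxycycline and fell by 1.16 in the N1ICD line. *PCSK1*, a prohormone convertase, stood at 8.18, 7.84 and 7.43 against 0.73, 0.28 and 0.24, and at 4.97, 5.33 and 5.63 in the N1ICD line before induction. *NCAM1*, an adhesion molecule, was lower (-1.17). Without library 37 it was no longer called (-0.84, adjusted *P* = 0.0667, limma).

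**Figure D3:**
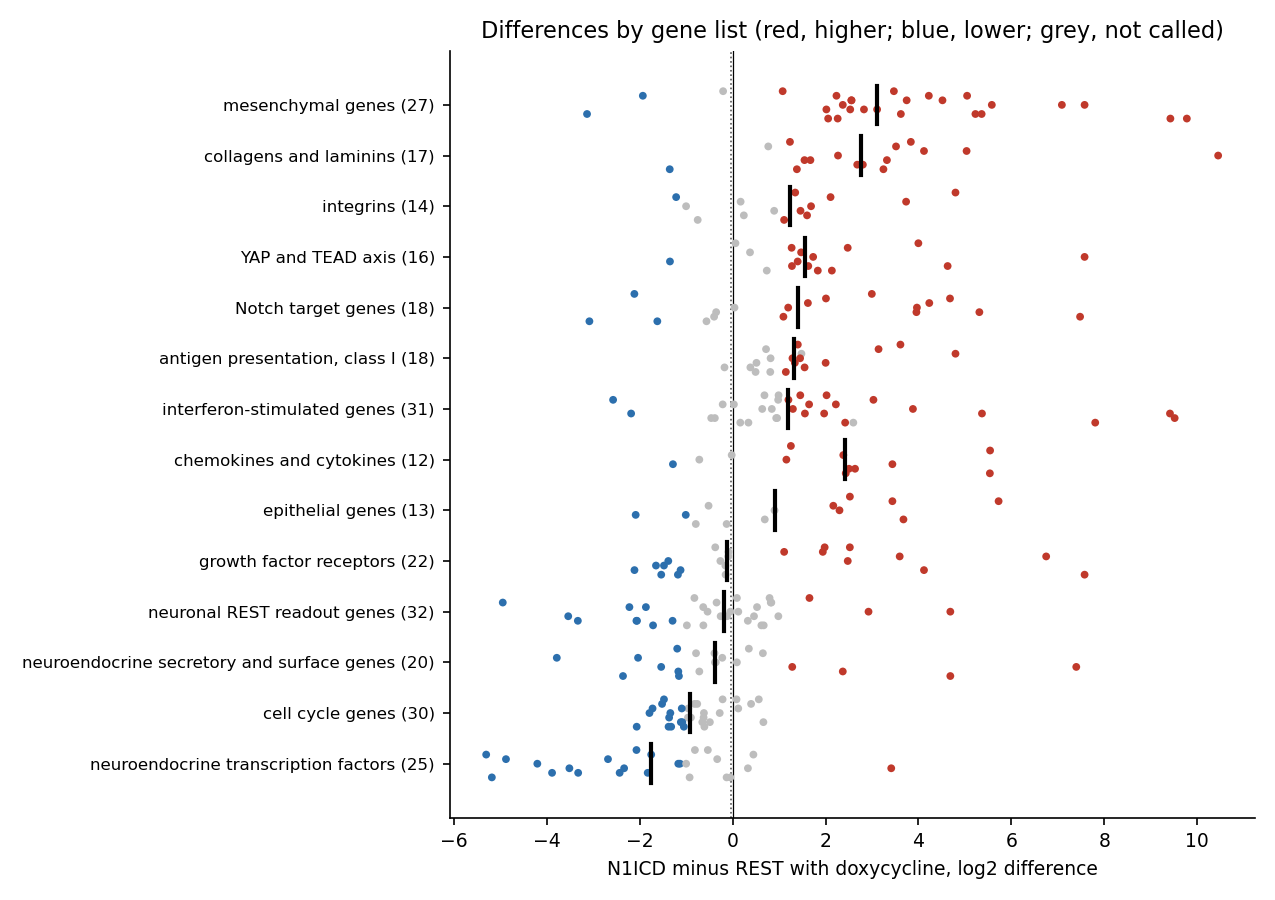
Log2 difference between N1ICD and REST cells with doxycycline (x axis) for the tested members of 14 gene lists (number tested in brackets); black bars mark list medians and the dotted line the median of all genes, -0.04. Medians run from -1.75 for NE transcription factors to 3.11 for mesenchymal genes.

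Mesenchymal and matrix genes were higher in N1ICD cells. Of 27 mesenchymal genes tested, 24 were higher and 2 lower (median 3.11), and of 17 collagens and laminins 15 were higher and 1 lower (median 2.77). *COL3A1* (chr2:189839099-189877472, GRCh37, plus strand), a fibrillar collagen, stood at 11.99, 12.53 and 12.09 in N1ICD cells and at 4.23, 0.58 and 0.44 in REST cells, where library 37 stood apart. The log2 difference was 10.45 (SE 0.73, adjusted *P* = 9.03e-08, limma). *POSTN*, a matrix protein, stood at 9.69, 9.78 and 9.95 against 0.08, 0.00 and 0.00. *FN1*, fibronectin, was at 9.90, 10.23 and 9.96 against 3.12, 2.64 and 3.06. *ACTA2*, smooth muscle actin, differed by 9.42 and *COL4A1*, a basement membrane collagen, by 5.04.

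*VIM*, vimentin, the usual mesenchymal marker, differed less. It stood at 6.58, 6.83 and 7.07 in N1ICD cells and at 4.79, 4.48 and 4.50 in REST cells (log2 difference 2.24, SE 0.43, adjusted *P* = 0.000856, limma). Without doxycycline it had been lower in the N1ICD line (-1.60). *CDH2*, N-cadherin, is counted as mesenchymal but is also a neural adhesion gene, and it was lower in N1ICD cells (-3.13, adjusted *P* = 8.73e-07, limma). It fell in both lines (-2.83 and -1.17) and was the mesenchymal gene called in the REST line. In the N1ICD line 20 of 27 mesenchymal genes rose and 2 fell with doxycycline, where 11.4% and 7.19% of all genes did. In the REST line none rose and 1 fell, where 1.28% and 0.586% of all genes did, so these counts were near the background. *S100A6*, a calcium-binding protein, differed by 5.58 between N1ICD and REST cells and by 6.07 between the same lines without doxycycline.

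The transcription factors of epithelial-mesenchymal transition went both ways, with 3 higher and 2 lower of 6. *SNAI2* stood at 6.86, 7.63 and 7.76 in N1ICD cells and at 0.95, 0.51 and 1.10 in REST cells. *ZEB2* was higher by 2.52 and *PRRX1* by 2.86. *SNAI1* was lower, at 2.86, 3.44 and 2.30 against 6.60, 5.88 and 5.52 (log2 difference -3.13, SE 0.56, adjusted *P* = 0.000516, limma), and *ZEB1* was lower (-1.72). The *SNAI* paralogs, like the *ZEB* paralogs, thus differed in opposite directions.

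Epithelial genes were also more often higher than lower in N1ICD cells, 6 against 2 of 13 (median 0.90). Without doxycycline 6 were already higher in the N1ICD line and none lower (median 1.16), and the response to doxycycline was higher for 2 and lower for 3 in N1ICD cells. *ESRP1*, an epithelial splicing factor, stood at 6.62, 5.19 and 5.59 against 1.66, 1.94 and 3.49. The keratin *KRT8* stood at 4.18, 3.50 and 3.76 against 0.21, 0.12 and 0.08. *EPCAM*, an epithelial adhesion molecule, was higher by 2.17 with doxycycline and by 2.75 without it. *CLDN4*, a tight junction protein, was lower with doxycycline (-2.09) and higher without it (1.99). *KRT17* (chr17:39775694-39781094, GRCh37, minus strand), a keratin of basal cells, had the largest difference of all genes called, 11.19 (SE 0.50, adjusted *P* = 9.43e-10, limma). It stood at 11.21, 11.08 and 12.42 in N1ICD cells and at 0.26, 0.00 and 0.87 in REST cells.

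YAP1 and WWTR1 are coactivators that work through TEAD factors and are low in NE SCLC. Of 16 genes of this axis 12 were higher in N1ICD cells and 1 lower (median 1.55). *YAP1* stood at 5.55, 6.50 and 6.42 against 2.01, 1.10 and 1.47, with no overlap (log2 difference 4.63, SE 0.29, adjusted *P* = 3.04e-08, limma). In the REST line its difference of 1.01 with doxycycline did not pass the test (adjusted *P* = 0.0848, limma). The TEAD targets *CYR61* and *CTGF* were higher in N1ICD cells by 4.00 and 2.48. *POU2F3*, the factor of the tuft-like subtype, was listed at 0 in all REST libraries and stood at 4.98, 2.15 and 3.57 in N1ICD cells. In the N1ICD line without doxycycline it was already at 4.58, 0.51 and 1.50, a range that overlapped the induced libraries. *SOX9* was lower in N1ICD cells (-2.47).

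Growth factor receptors were split, with 9 higher and 7 lower of 22 (median -0.12). *PDGFRB*, a receptor of mesenchymal cells, stood at 6.84, 6.96 and 6.80 in N1ICD cells and at 0.21, 0.10 and 0.04 in REST cells. *DDR2*, a collagen receptor, was higher by 4.12 and also rose in the REST line, by 2.09. *INSR*, the insulin receptor, was higher in N1ICD cells by 2.52, and this was smaller than the 5.32 without doxycycline. It rose in the REST line alone, by 2.70. *EGFR* stood at 0.02, 0.02 and 0.00 in N1ICD cells and at 1.99, 1.23 and 1.76 in REST cells, and was as low in the N1ICD line without doxycycline (0.04, 0.01 and 0.04).

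Genes of antigen presentation by MHC class I rose in part in both lines, with N1ICD cells the higher group. Of 18 class I genes tested 10 were higher and none lower in N1ICD cells (median 1.31). With doxycycline 13 rose in the N1ICD line (median 1.60) and 6 in the REST line (median 0.36), where 175 (1.28%) of all genes rose. *HLA-C*, a class I heavy chain, stood at 5.23, 5.64 and 6.05 in N1ICD cells and at 2.21, 2.93 and 2.36 in REST cells (log2 difference 3.14, SE 0.41, adjusted *P* = 3.77e-05, limma). It had been at or below 0.21 in every REST vector library without doxycycline. *HLA-E* was higher by 3.61 with doxycycline and by 3.44 without it, and rose by 1.82 and 1.65 in the 2 lines.

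The proteasome subunit gene *PSMB9* differed less between the groups than *HLA-C*. *PSMB9*, which makes peptides suited to class I, stood at 5.97, 6.46 and 7.14 in N1ICD cells and at 5.82, 4.53 and 4.77 in REST cells. Each N1ICD library was above each REST library, but the log2 difference of 1.48 (SE 0.69) did not pass the test (adjusted *P* = 0.103, limma). Of the alternatives tried, it passed when N1ICD and REST cells were fitted alone (adjusted *P* = 0.0163, limma). *PSMB9* rose by 4.20 in the N1ICD line and by 3.48 in the REST line, and *PSMB8* by 2.08 and 1.73. The peptide transporter gene *TAP1* rose by 1.64 and 1.26. *TAP2* rose by 1.85 in the N1ICD line and did not pass the test in the REST line (0.36, adjusted *P* = 0.321, limma), and the difference of these responses was 1.49 (adjusted *P* = 0.000866, limma). *B2M*, the light chain, stood at 7.92, 8.17 and 8.47 against 7.63, 7.26 and 7.24, a difference under the limit of 1 (0.81). Of MHC class II genes 4 were tested. *HLA-DPB1* and *HLA-DPA1* rose in the REST line, by 2.35 and 1.53, to levels whose difference from N1ICD cells did not pass the test (0.37 and 0.31).

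Interferon-stimulated genes were higher in N1ICD cells in 15 of 31 cases and lower in 2 (median 1.20). *IFITM1*, a membrane protein that restricts viral entry, stood at 7.79, 8.04 and 8.17 in N1ICD cells and at 0.41, 0.08 and 0.10 in REST cells (log2 difference 7.81, SE 0.15, adjusted *P* = 2.37e-13, limma). *IFITM2* differed by 9.52 and *IFITM3* by 5.37. *XAF1*, an apoptosis gene induced by interferon, stood at 10.27, 10.41 and 10.81 against 3.25, 0.00 and 0.00. *ISG15*, a ubiquitin-like modifier, differed by 0.84, under the limit of 1, and rose in both lines, by 2.47 and 1.02. *IFI44* and *HERC5*, the 2 lower genes, differed by -2.18 and -2.57, and by -1.37 and -1.58 without doxycycline.

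Among 16 genes of nucleic acid sensing 6 were higher and none lower in N1ICD cells. *IRF1*, an activator of interferon and MHC genes, stood at 3.74, 3.65 and 4.49 against 0.52, 0.77 and 0.96 (log2 difference 3.21, SE 0.20, adjusted *P* = 2.84e-08, limma). *IFIH1*, the RNA sensor MDA5, was listed at 0 in all REST libraries and stood at 6.68, 6.82 and 7.23 in N1ICD cells. Of 12 chemokines and cytokines 9 were higher and 1 lower (median 2.41). *CSF1*, a macrophage growth factor, stood at 6.85, 7.17 and 7.10 against 1.80, 1.18 and 1.52, *CXCL2*, a neutrophil chemokine, was higher by 5.54 and *TGFB1* by 3.44. Of 14 checkpoint and natural killer cell ligands 5 were higher, among them *CD276* (2.04) and *FAS*, a death receptor (2.05). *CD274*, which encodes PD-L1, stood at 1.46, 1.08 and 1.27 in N1ICD cells and at 2.18, 1.65 and 2.09 in REST cells, a difference of -0.70 that was not called.

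Of 30 cell cycle genes 13 were lower in N1ICD cells and none was higher (median -0.93). Without doxycycline 8 were already lower in the N1ICD line and 1 was higher (median -0.36), and 5 had a lower response to doxycycline in N1ICD cells. *MKI67*, the proliferation marker Ki-67, stood at 5.25, 5.32 and 5.68 against 6.55, 7.04 and 6.76 (log2 difference -1.37, SE 0.23, adjusted *P* = 0.000367, limma). *E2F1*, a factor that starts DNA synthesis, was lower (-1.38). *AURKA*, a mitotic kinase, was lower with doxycycline (-2.06) and without it (-1.43). With doxycycline 5 of the 30 fell in the N1ICD line, where 7.19% of all genes did. None fell in the REST line (median -0.12), which is near the 0.586% of all genes that fell there. None of 11 housekeeping genes was called between N1ICD and REST cells with doxycycline (median -0.19). This depended on the processing for *ACTB*, an actin gene among them. It was called lower with quantile normalization (log2 difference -1.26) or median centring, and without library 27 (-1.04) or library 38 (-1.09). Without doxycycline 1 of the 11 was called lower in the N1ICD line, and 1 fell with doxycycline in that line.

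The genes with the largest differences were taken by size alone, 12 in each direction. Those higher in N1ICD cells included *KRT17*, *COL3A1*, *TBX2*, *POSTN*, *H19*, *IFITM2*, *ACTA2*, *XAF1*, *SERPINB9*, *MIR145* and *ADAMTS10*. *TBX2*, a T-box factor, stood at 11.03, 11.26 and 11.51 against 1.79, 1.32 and 0.91. *H19*, an imprinted long noncoding RNA, stood at 12.91, 13.05 and 13.01 against 4.73, 3.44 and 1.96, and rose in both lines, by 9.70 and 2.98. *SERPINB9*, an inhibitor of granzyme B, differed by 9.25 with doxycycline and by 5.04 without it. *MIR145* lies within a longer noncoding RNA gene, so its reads cannot be told apart from that host RNA.

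Those lower in N1ICD cells were *CTSF*, *DCC*, *PPP1R17*, *BASP1*, *NHLH2*, *AKAP14*, *OPRK1*, *NEUROD1*, *IGSF11*, *TTC24*, *SCN3A* and *TAGLN3*. *CTSF*, cathepsin F, stood at 0.34, 0.51 and 0.23 in N1ICD cells and at 6.06, 6.57 and 6.38 in REST cells. It was already at 0.35, 1.33 and 0.00 in the N1ICD line without doxycycline, where parental cells stood at 6.86, 6.97 and 6.84. *BASP1*, a growth cone protein, differed by -5.65 with and -4.53 without doxycycline. *DCC*, the netrin receptor, stood at 2.24, 1.32 and 1.65 against 8.46, 6.61 and 7.84 and fell by 4.14 in the N1ICD line. *AKAP14* was listed at 0 in all N1ICD libraries.

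The lines thus differed before induction. Without doxycycline 2385 genes (17.5%) were called between the N1ICD and REST vector lines, 1049 (7.69%) higher and 1336 (9.79%) lower in the N1ICD line. No library was shared between this comparison and the one with doxycycline. In the same direction 1072 genes were called in both, 33% of the 3244 and 44.9% of the 2385, and 109 were called in opposite directions. The other 2063 (63.6% of the 3244) were not called without doxycycline. Of the 12 largest genes in each direction, 4 of those higher and 10 of those lower in N1ICD cells were also called without doxycycline. *NOTCH1* itself stood at 0.79, 1.28 and 1.52 in the N1ICD line without doxycycline and at 0.53, 0.46 and 0.49 in the REST line (log2 difference 0.71, adjusted *P* = 0.0526, limma). Its part in these differences was not tested.

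**Figure D4:**
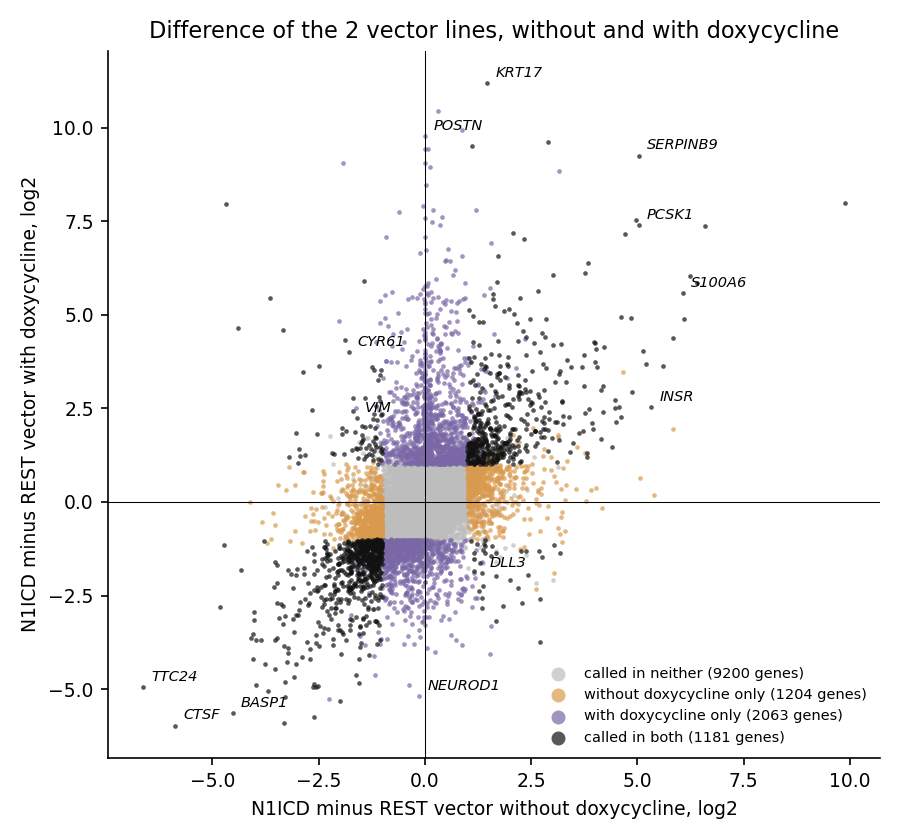
Log2 difference between the N1ICD and REST vector lines without doxycycline (x axis) and with it (y axis) for each tested gene. *CTSF*, *BASP1*, *S100A6* and *PCSK1* differed in the same direction in both, while *NEUROD1* and *POSTN* were called only with doxycycline.

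The difference between the doxycycline responses was also tested. It equals the difference with doxycycline minus that without it, so a gene that differed between the lines beforehand and not afterwards can be called. The test called 2123 genes (15.6%), 1348 (9.88%) with a higher and 775 (5.68%) with a lower response in N1ICD cells. All 12 of the largest genes higher in N1ICD cells and 6 of the 12 lower were called. By list, 20 of 27 mesenchymal genes had a higher response and 2 a lower one, as did 15 and 1 of 17 collagens and laminins, 11 and 4 of 18 Notch targets and 6 and none of 18 class I genes. Among NE transcription factors none was higher and 9 of 25 were lower, and among the neuronal REST genes 2 were higher and 4 lower of 32. The medians were 2.82, 2.72, 1.75, 0.86, -1.19 and 0.06, in that order, against -0.02 for all genes.

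Doxycycline changed 2540 genes (18.6%) in the N1ICD line and 255 (1.87%) in the REST line. The REST count rested on single libraries: it was 106 without library 39, 113 without library 36, 120 without library 35 and 130 without library 38, against 292 without library 37. These comparisons share no library. In the same direction 101 genes were called in both, 3.98% of the 2540 and 39.6% of the 255, and 17 were called in opposite directions. Doxycycline itself and collection of adherent cells were common to both lines, and their part in the shared genes cannot be told apart from that of the vectors.

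Of the shared genes 69 rose in both lines. *MSN*, moesin, which ties membrane to cytoskeleton, rose most by the smaller of its changes, from 4.33, 2.26 and 2.15 to 8.90, 9.43 and 9.58 in the N1ICD line and from 0.56, 0.31 and 0.32 to 6.84, 5.55 and 5.04 in the REST line. *NID2*, a basement membrane protein, rose by 7.32 and 4.30, *PLXDC1* by 4.29 and 4.72, *EGR1*, an immediate early factor, by 5.43 and 3.08 and *COLCA1* by 3.51 and 3.15. *PSMB9*, *GABARAPL1* and *H19* complete the 8 with the largest smaller change. Another 32 fell in both, led by *GRIN1*, *GAP43*, *NEFM*, *SMPD3*, *TAS2R19*, *MYT1L*, *BHLHE22* and *PLCH2*. Of these, *GRIN1*, *GAP43*, *NEFM*, *MYT1L* and *BHLHE22* are neuronal genes.

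**Figure D5:**
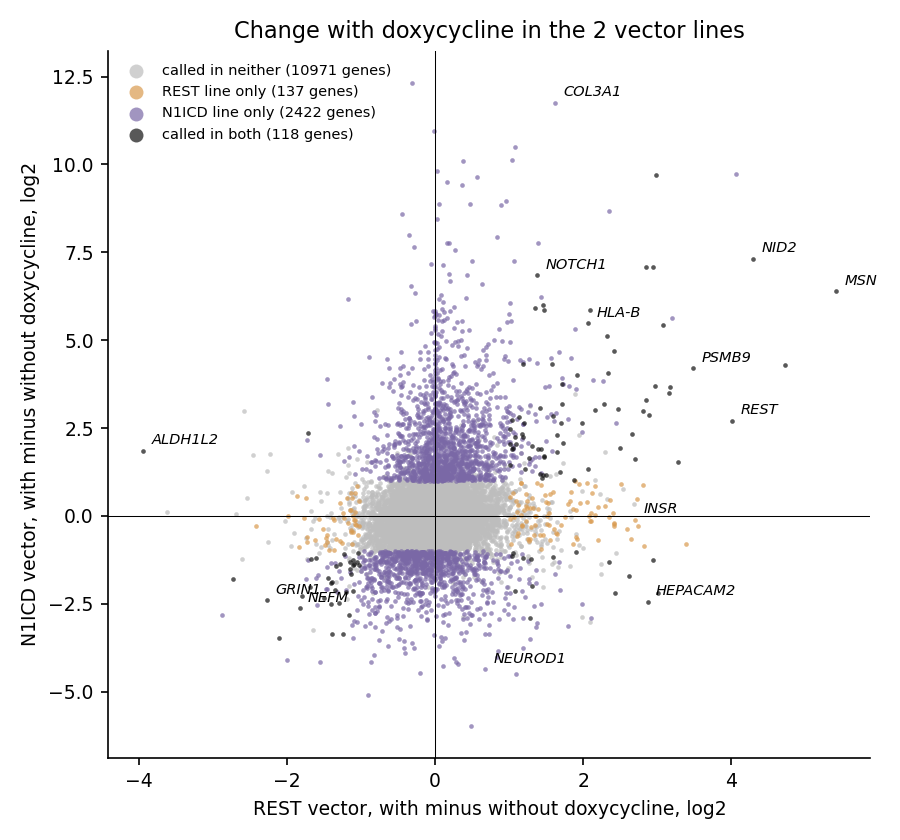
Log2 difference with minus without doxycycline in the REST line (x axis) and the N1ICD line (y axis) for each tested gene. *MSN*, *NID2*, *PSMB9* and *REST* rose in both, *GRIN1* and *NEFM* fell in both, and most genes called in the N1ICD line, such as *COL3A1* and *NEUROD1*, were not called in the REST line.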

How the data were processed

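Human SCLC cell lines were profiled by stranded polyA RNA-seq. The deposited table holds log2 values that the authors computed from RSEM estimates after cutadapt trimming and STAR alignment to hg19, with edgeR named for normalization in the submitters' notes; values at 0 show that 1 was added to the RPKM before the log. Read counts were not used here and the values are not whole reads, so depth is known only relatively. The study's limma voom needs counts, and limma 3.58.1 (R 4.3.3) with a variance trend was therefore fitted to the log2 values of all 15 H524 libraries, with 1 mean for each of 5 groups and no covariate. Adjusted *P* values (Benjamini-Hochberg) cover the 13648 genes tested, two-sided. The fit was tested on simulated data.

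Named genes were members of 27 lists (526 genes), the 12 called genes with the largest difference in each direction among those whose groups did not overlap and whose higher mean was at least 2, and the 8 genes in each direction with the largest smaller change shared by both lines. Lists and members were chosen with earlier results of these data known. Gene positions are GRCh37, and promoters, matched by symbol for 10178 genes tested, are RefSeq GRCh38.p14. Figures were drawn with matplotlib 3.10.9. No mitochondrially encoded gene was in the table. A few genes that met these rules are not reported here. Genes named among those with opposite responses were chosen after their values were seen.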

Additional observations from a re-analysis of the deposited data

Results flagged for a closer look

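The difference between the doxycycline responses of the N1ICD and REST lines was tested for every gene, and 2123 genes passed. Among the genes with the largest differences that were higher in N1ICD cells, the response in the N1ICD line exceeded that in the REST line by 10.97 for *MIR145*, 10.13 for *COL3A1*, 9.78 for *POSTN*, 9.72 for *KRT17*, 9.41 for *XAF1*, 9.34 for *ACTA2*, 9.06 for *TBX2*, 8.82 for *ADAMTS10*, 8.41 for *IFITM2*, 6.72 for *H19* and 4.21 for *SERPINB9* on the log2 scale. Among those lower, it was below that in the REST line for *NEUROD1* (-5.04), *NHLH2* (-3.32), *PPP1R17* (-3.13), *DCC* (-2.58), *SCN3A* (-2.38) and *TAGLN3* (-2.31).

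In 17 genes doxycycline was called in opposite directions in the lines. All 17 passed the test of the difference, which this choice of genes builds in and which adds no support. *ALDH1L2*, a mitochondrial folate enzyme, rose in the N1ICD line to 7.49, 7.09 and 7.09 and fell in the REST line to 2.69, 1.19 and 1.55, with a difference of responses of 5.81. *CREB5*, a transcription factor, followed (4.07). The others fell in the N1ICD line and rose in the REST line. *HEPACAM2*, a cell adhesion gene, stood at 3.33, 4.48 and 3.76 without and 2.07, 0.97 and 1.21 with doxycycline in the N1ICD line, and at 1.81, 0.87 and 0.76 without and 3.36, 4.41 and 4.27 with it in the REST line (-5.31). The remaining differences of responses were -5.19 for *C21orf90*, -4.61 for *RPL3L*, -4.32 for *DMKN*, -4.21 for *TUBB4A*, -4.18 for *FAM83G*, -3.65 for *KAL1*, -3.29 for *EYA2*, -3.20 for *SARDH*, -2.93 for *FRRS1L*, -2.76 for *FAM174B*, -2.52 for *ARRDC2*, -2.39 for *ITPR3*, -2.17 for *KLHDC8A* and -2.11 for *DLX4*. Several of these genes differed between the lines before induction and were not called between N1ICD and REST cells with doxycycline. The log2 differences without and with doxycycline were 5.38 and 0.19 for *C21orf90*, 4.16 and -0.16 for *DMKN*, 3.55 and 0.35 for *SARDH* and 1.73 and -0.67 for *ITPR3*. *HEPACAM2*, *RPL3L* and *TUBB4A* were higher in the N1ICD line without doxycycline (2.71, 1.83 and 2.75) and lower with it (-2.60, -2.77 and -1.46).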

How the results depend on the processing

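The number of genes called between N1ICD and REST cells was 3203 to 3956 over filter, pseudocount, scaling, fit and variance alternatives and 2723 to 3307 when 1 library was left out. Ranges for 1 library left out were 1990 to 2835 without doxycycline, 1435 to 2579 for the difference of responses, 2023 to 2828 for doxycycline in the N1ICD line and 106 to 292 in the REST line, whose count moved by over 1.5 times without library 35, 36, 38 or 39; the lone pair left is assumed to vary like the other groups. Median centring moved the median of all genes in the N1ICD line from -0.02 to -0.13. Of 141 named genes called between N1ICD and REST cells, 130 kept the call and direction in all 12 alternatives. The calls of *CREB5*, *CXCL11*, *DTX1*, *FOS*, *JUN*, *NCAM1*, *PLCH2*, *SMPD3* and *TYMS* were lost without at least 1 library and those of *COLCA1* and *EGR1* with a pseudocount of 0.1. Among genes not called, the sign depended on the library left out for *C21orf90* (-0.43 to 0.56), *DMKN* (-0.61 to 0.24), *GRIN1* (-0.63 to 0.20), *ONECUT2* (-0.32 to 0.14), *PLXDC1* (-0.71 to 0.51) and *SYP* (-0.13 to 0.30). No paired analysis was possible because the H524 groups share no replicate number. With 3 libraries a group and no counts, low genes are the least precise.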

Other observations

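Among integrins, 8 of 14 were higher in N1ICD cells than in REST cells and 1 was lower (median 1.23), and among AP-1 factors 6 of 11 were higher and 1 lower (median 1.01). *FOS*, an immediate early factor, stood at 6.69, 6.73 and 6.22 in N1ICD cells and at 4.34, 2.36 and 3.52 in REST cells (log2 difference 3.14, SE 0.96, adjusted *P* = 0.0174, limma). The call was lost without library 26 (adjusted *P* = 0.0524, limma) or library 38 (adjusted *P* = 0.07, limma).

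Of 6 MYC family genes 1 differed, where 23.8% of all genes tested did. *MYCL*, a MYC paralog amplified in some SCLC, stood at 1.12, 0.83 and 1.00 in N1ICD cells and at 2.33, 2.83 and 2.93 in REST cells, where it rose with doxycycline by 1.51 (adjusted *P* = 0.0205, limma). *MYC* was at 8.77, 9.51 and 9.18 against 9.34, 8.59 and 8.44 and was not called. Of 13 cell cycle inhibitors and D cyclins 2 were lower in N1ICD cells and none was higher, against 11.5% and 12.3% of all genes. *RB1*, a tumor suppressor often lost in SCLC, stood at 2.00, 2.10 and 2.31 against 1.43, 1.27 and 1.61, a difference of 0.70 that was under the limit of 1.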
